A study of Mus musculus with 8 samples.

Results

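Mouse embryonic stem cells (ESCs) expanded in CH+LIF were compared with ESCs expanded in 2i, a pair of serum-free media that hold the same GSK3 inhibitor and differ in LIF and in the MEK inhibitor. CH is CHIR99021, an inhibitor of the kinase GSK3, and PD is PD0325901, an inhibitor of the kinase MEK. The 2i cultures received 3 µM CH and 1 µM PD without LIF. The CH+LIF cultures received 3 µM CH and the cytokine LIF without PD. The comparison takes in 4 of the 8 RNA-seq cultures of the series, 2 per medium, and its members were chosen by the medium named in the sample labels. The other 4 cultures, 2 in 2i+LIF and 2 in LIF+PD, entered the same model, and the 2i+LIF cultures are given beside the comparison because they stand 1 change of medium away from each of its sides. All 8 cultures were Rex1GFPd2 ESCs of strain 129, a single reporter line in which a destabilised green fluorescent protein reports the Rex1 (Zfp42) locus. The line had grown for 6 passages in 2i and then 5 passages in its medium, in N2B27 on gelatin, and was at passage 11. The labels give replicate numbers but not how the replicate cultures arose, so the p-values measure the spread between these samples, which may be technical.

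LIF binds its receptor with gp130, activates the JAK kinases and, through them, the transcription factor STAT3, which induces naïve pluripotency factors and its own inhibitor Socs3. FGF signalling acts through RAS, RAF, MEK and ERK, moves ESCs towards differentiation and induces its own feedback inhibitors, among them the Sprouty proteins and the ERK phosphatase Dusp6. Inhibition of GSK3 stabilises β-catenin and relieves repression by Tcf3 (Tcf7l1), and it is common to both media here. Differences between CH+LIF and 2i thus combine the presence of LIF with the absence of MEK inhibition, and these cannot be told apart in the comparison itself.

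Levels are FPKM, fragments per kilobase of transcript relative to all mapped fragments in a library, and differences are of log2(FPKM + 1), CH+LIF minus 2i unless stated, with the standard error from the limma model. Because of the added 1, changes of low genes come out too small on this scale. A gene passed at a Benjamini-Hochberg adjusted p below 0.05 over 12777 genes, and only such a gene is said to rise or fall. The files hold no read counts. Steps between low FPKM values put the relative depth of the 2i libraries at 0.499 and 0.968 and that of the CH+LIF libraries at 1.17 and 1.18, on a scale where replicate 1 of 2i+LIF is 1. Replicate 1 of 2i was thus the shallowest of the 4, and its low FPKM values are the least precise. The 4 libraries listed 11659 to 11923 genes at FPKM of at least 1. Genes shorter than 300 bases, which were left out of the tests, took 13.4% and 7.17% of the summed FPKM in 2i and 6.19% and 2.19% in CH+LIF. Across genes the replicates correlated at r = 0.986 in 2i and 0.990 in CH+LIF, and libraries of different media at 0.953 to 0.960, as a description over genes that are not independent.

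The media labels were first set against 3 genes that report the signals. Socs3 (chr11:117966079-117970047, GRCm38) was listed at 2.59 and 1.29 FPKM in the 2i cultures and at 98.2 and 119 FPKM in CH+LIF. Spry4, a Sprouty inhibitor of RAS-ERK signalling, was at 0.610 and 0.293 FPKM in 2i and at 37.5 and 40.7 FPKM in CH+LIF. Dusp6 (chr10:99263231-99267488) was at 5.99 and 3.55 FPKM in 2i and at 26.5 and 32.3 FPKM in CH+LIF. Both CH+LIF cultures lay above both 2i cultures for each gene. The log2 differences were 5.25 ± 0.21 for Socs3 (adjusted p = 1.34e-05), 4.80 ± 0.22 for Spry4 (adjusted p = 2.49e-05) and 2.42 ± 0.26 for Dusp6 (adjusted p = 7.60e-04). The 2i+LIF cultures, with all 3 additives, held Socs3 at 63.9 and 79.0 FPKM and Dusp6 at 5.64 and 4.58 FPKM, so the first was high wherever LIF was present and the second wherever PD was absent among these 3 media. Axin2, a direct β-catenin target, was at 65.4 and 64.9 FPKM in 2i and 68.4 and 63.8 FPKM in CH+LIF against 1.85 and 2.46 FPKM in LIF+PD, the medium without CH. Its 95% interval for CH+LIF minus 2i was -0.24 to 0.28 on the log2 scale. The pluripotency genes that define ESCs were high in all 4 cultures, Oct4 (Pou5f1) at 1980 and 1876 FPKM in 2i and 2269 and 2103 FPKM in CH+LIF, and Rex1 (Zfp42) at 203 and 190 and 258 and 238 FPKM.

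**Figure D1:**
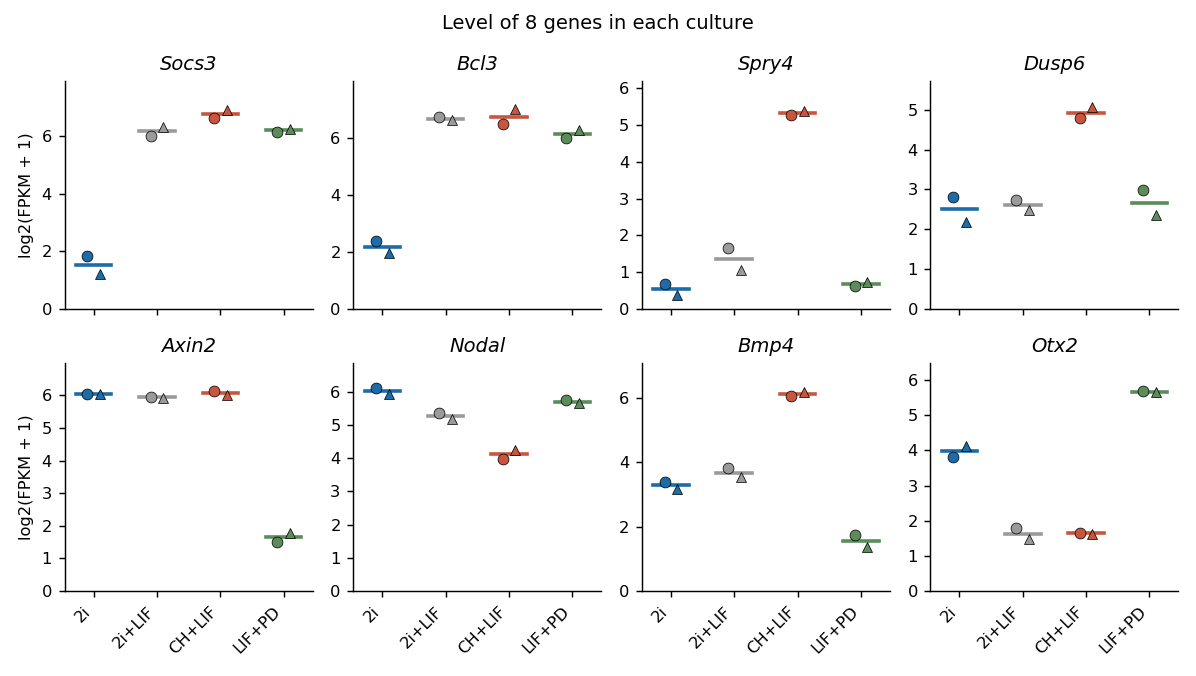
Level, as log2(FPKM + 1), of 8 genes in each of the 8 cultures, with 1 point per culture (circle replicate 1, triangle replicate 2) and a bar at the mean of each medium. Socs3 is at 1.29 to 2.59 FPKM in the 2i cultures and at 98.2 and 119 FPKM in CH+LIF, and Spry4 at 0.293 to 0.61 FPKM against 37.5 and 40.7 FPKM.

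Of the 12777 genes tested, 3199 (25.0%) differed between CH+LIF and 2i, 1418 (11.1%) higher and 1781 (13.9%) lower in CH+LIF. The median absolute log2 difference of these genes was 0.73. At least 2-fold differences on this scale were reached by 413 genes that were higher and 529 that were lower, and at least 8-fold differences by 25 and 9 genes. The 2 CH+LIF and the 2 2i cultures did not overlap for 3199 of the 3199 genes called, and for 8143 of the 12777 tested (63.7%). Protein-coding genes passed more often (26.0% of 11661) than long non-coding RNAs (16.3% of 613) or pseudogenes (12.1% of 354), a difference in shares that was not tested. The balance of directions depended on the scaling, with 44.3% of calls higher and 55.7% lower as deposited and 64.3% higher and 35.7% lower with each library scaled to the same sum (TPM), which moved the median of all genes by 0.12 on the log2 scale. The counts were lower without CH+LIF replicate 1 (693 higher, 930 lower), CH+LIF replicate 2 (860 and 1065) or 2i replicate 1 (896 and 1106), and were 1069 and 1395 without 2i replicate 2. Counts of list members with 1 of these cultures left out, given below, are to be read beside these lower counts. Set beside the main comparison, 2i+LIF differed from 2i in 2515 genes (19.7%, 9.34% higher and 10.3% lower), and CH+LIF differed from 2i+LIF in 3411 genes (26.7%, 12.8% higher and 13.9% lower). These share the 2i or the CH+LIF cultures with the main comparison, so their values are set side by side below and not counted as separate evidence.

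**Figure D2:**
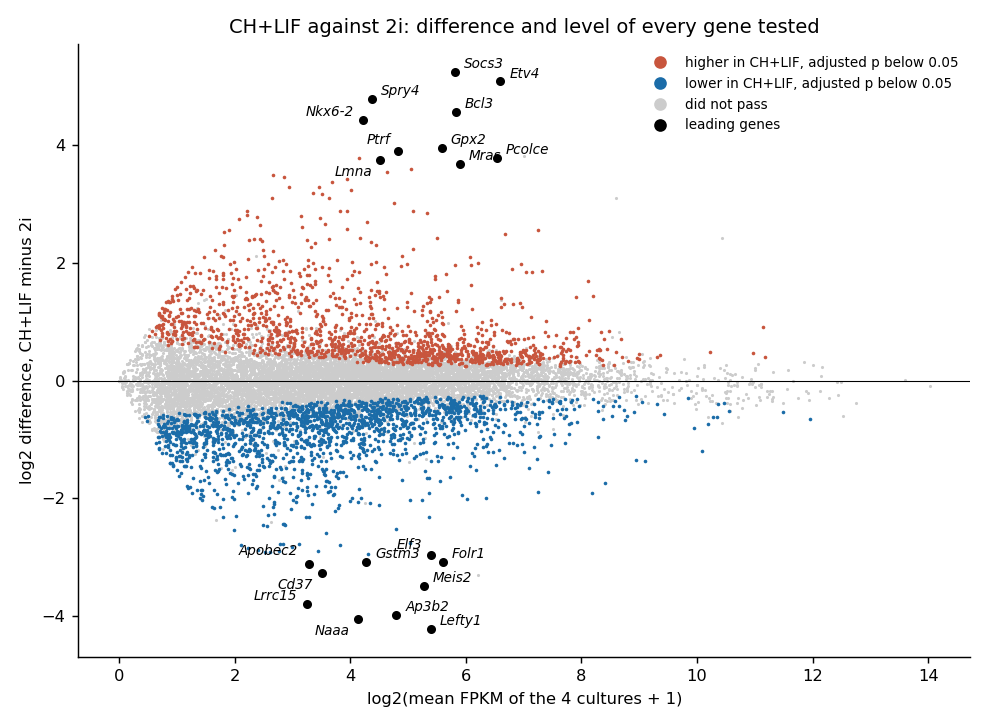
Log2 difference of FPKM + 1 between CH+LIF and 2i against the log2 of the mean FPKM + 1 of the 4 cultures, 1 point per gene tested, with the 1418 genes higher in CH+LIF in red, the 1781 lower in blue and the leading genes in black and named. The leading genes lie between 3.68 and 5.25 where they rose, and between -4.23 and -2.96 where they fell.

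The 10 genes with the largest rise were chosen by the size of their difference. The choice was among called genes of at least 5 FPKM on average in either medium and with no overlap between the CH+LIF and 2i cultures. These values, and the separation of the cultures, thus describe the choice. Among the 10 genes, besides Socs3 and Spry4, was the ETS factor Etv4, an ERK-responsive gene. It went from 8.84 and 2.06 FPKM in 2i to 184 and 188 FPKM in CH+LIF, a log2 difference of 5.09 ± 0.45. It was at 53.0 and 43.0 FPKM in 2i+LIF. Bcl3, an IκB-family cofactor induced by STAT3, went from 4.19 and 2.90 to 88.0 and 128 FPKM, a log2 difference of 4.57 ± 0.20. Bcl3 was already at 104 and 98.1 FPKM in 2i+LIF, and its difference between CH+LIF and 2i+LIF was 0.07 ± 0.20 (adjusted p = 0.830). The homeobox gene Nkx6-2 was near the floor in 2i at 0.979 and 0.337 FPKM and at 29.4 and 39.9 FPKM in CH+LIF. Gpx2, a glutathione peroxidase, was at 3.96 and 5.59 FPKM in 2i and 76.0 and 102 FPKM in CH+LIF. Ptrf, which encodes the caveolar coat protein cavin-1, was at 2.01 and 3.19 and 47.5 and 56.9 FPKM, with 9.31 and 10.3 FPKM in 2i+LIF, between the media compared. Pcolce, an enhancer of procollagen processing, had the smallest adjusted p of these genes (4.34e-06), at 11.7 and 11.3 FPKM in 2i and 168 and 176 FPKM in CH+LIF. Lmna, which encodes the A-type lamins of the nuclear envelope, was at 1.72 and 2.58 and 36.1 and 46.6 FPKM, a log2 difference of 3.75 ± 0.20. Mras, a RAS-related GTPase, was at 9.02 and 6.37 FPKM in 2i and 108 and 111 FPKM in CH+LIF, and at 73.4 and 83.4 FPKM in 2i+LIF. The adjusted p of the 10 genes ran from 4.34e-06 to 0.000392, and none lost its call when any 1 culture was left out.

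Lefty1, an inhibitor and target of Nodal signalling, had the largest fall of the genes chosen in the same way and the widest error among them. It was at 109 and 49.2 FPKM in 2i and 2.98 and 2.96 FPKM in CH+LIF, a log2 difference of -4.23 ± 1.11 (adjusted p = 0.0285), and lost the call without 2i replicate 1 or 2 or CH+LIF replicate 1 or 2 (adjusted p up to 0.125). The LIF+PD cultures held Lefty1 at 66.4 and 3.08 FPKM, a spread between replicates that enters the shared error. Naaa, a lysosomal acid amidase, was at 48.7 and 16.4 FPKM in 2i and 0.554 and 1.00 FPKM in CH+LIF. Ap3b2, a subunit of the neuronal AP-3 adaptor, was at 59.9 and 42.8 and 2.36 and 2.18 FPKM, with 10.6 and 6.38 FPKM in 2i+LIF. Ap3b2 was lower after each single change of medium, with a log2 difference of -2.48 ± 0.24 with LIF added to 2i and of -1.5 ± 0.24 with PD left out of 2i+LIF. Lrrc15, a leucine-rich repeat membrane protein, was at 17.8 and 15.7 FPKM in 2i, 12.3 and 11.5 FPKM in 2i+LIF and 0.314 and 0.222 FPKM in CH+LIF. Meis2, a TALE homeobox factor, was at 62.2 and 78.5 FPKM in 2i, 84.9 and 72.6 FPKM in 2i+LIF and 4.86 and 5.76 FPKM in CH+LIF. Elf3, an epithelial ETS factor, was at 75.5 and 72.4, 87.0 and 90.7 and 8.52 and 8.69 FPKM in the same order. For both genes the 2i+LIF cultures, too, lay above both CH+LIF cultures. LIF added to 2i gave log2 differences of 0.17 ± 0.14 and 0.26 ± 0.09 that did not pass. The tetraspanin Cd37, the cytidine deaminase family member Apobec2, the folate receptor Folr1 and the glutathione transferase Gstm3 completed the 10. Folr1 was the most abundant of these 4 at 91.3 and 80.8 FPKM in 2i and 8.43 and 10.1 FPKM in CH+LIF, a log2 difference of -3.09 ± 0.17. The other 9 genes kept their call when any 1 culture was left out.

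**Figure D3:**
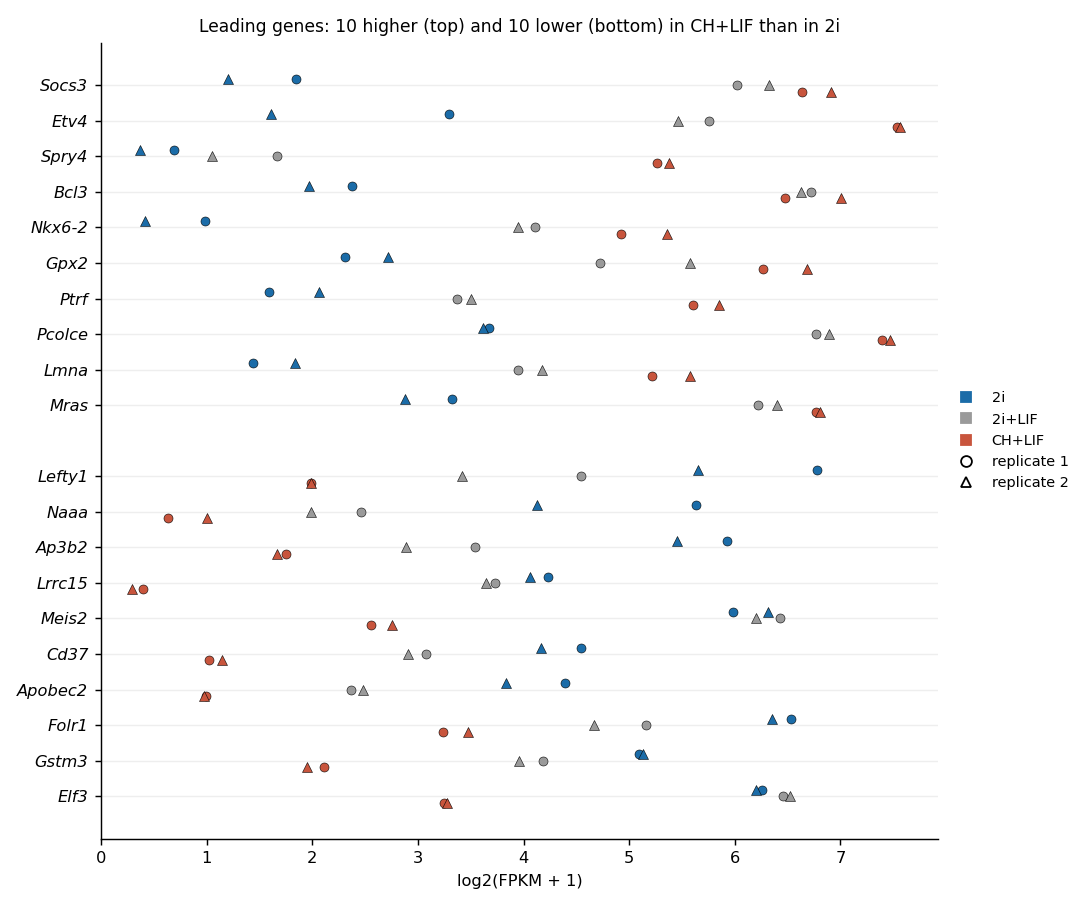
Level, as log2(FPKM + 1), of the 10 genes with the largest rise and the 10 with the largest fall between 2i and CH+LIF, with 1 point per culture for 2i, 2i+LIF and CH+LIF and 1 marker shape per replicate. For each gene both CH+LIF points lie on 1 side of both 2i points, which was a condition of the choice. The 2i replicates of Etv4 (8.84 and 2.06 FPKM), Naaa (48.7 and 16.4 FPKM) and Lefty1 (109 and 49.2 FPKM) stand apart from each other.

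Genes of the LIF receptor pathway and targets of STAT3 were mostly higher in CH+LIF. Of 24 list members tested, 16 rose and 1 fell, against 11.1% and 13.9% of all genes, and the median log2 difference was 0.66 against -0.03 over all genes tested. The lists used here were drawn up with earlier results of these data known. Without CH+LIF replicate 2, 11 members passed, all higher. Stat3 itself was at 9.69 and 17.1 FPKM in 2i and 87.8 and 62.3 FPKM in CH+LIF, a log2 difference of 2.43 ± 0.25 (adjusted p = 6.05e-04). The 2i+LIF cultures, which also received LIF, were at 55.9 and 49.6 FPKM, above both 2i cultures. Junb, an AP-1 subunit, rose from 1.20 and 0.789 to 13.9 and 20.9 FPKM, by 3.19 ± 0.23 on the log2 scale (adjusted p = 1.14e-04). Klf5, a Krüppel-like factor of the naïve state, rose from 76.2 and 60.8 to 241 and 260 FPKM, by 1.86 ± 0.12. Cish, a SOCS-family inhibitor named after its value was seen, was low in both media and rose from 0.301 and 0.872 to 4.5 and 6.24 FPKM, by 2.02 ± 0.29 (adjusted p = 0.00277).

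The receptor gene Lifr, also named after its value was seen, was at 7.43 and 8.46 FPKM in 2i and 10.7 and 11.7 FPKM in CH+LIF, a difference of 0.45 ± 0.11 that passed, but not without 2i replicate 1 or CH+LIF replicate 1 or 2 (adjusted p up to 0.118). The kinase gene Jak1 was at 12.5 and 11.9 and 13.0 and 12.8 FPKM, with a 95% interval of the log2 difference of -0.15 to 0.29. Jak2 was the member that fell, from 3.46 and 3.18 to 1.60 and 2.09 FPKM, a log2 difference of -0.61 ± 0.17, a call lost with TPM scaling and without 2i replicate 1 or 2, CH+LIF replicate 1 or 2 or LIF+PD replicate 1 or 2 (adjusted p up to 0.173). The SOCS-family members Socs1 and Socs2 were at 3.36 and 2.92 and 53.6 and 42.0 FPKM in 2i and at 4.09 and 5.48 and 57.4 and 61.4 FPKM in CH+LIF, and did not pass (log2 differences 0.48 ± 0.18 and 0.32 ± 0.20). Set side by side, LIF added to 2i gave 13 calls among the members, each higher (19.7% of all genes called), and PD left out of 2i+LIF gave 8, each higher (26.7% of all genes called). Klf4 and Bcl3 differed from 2i with LIF added (2.0 ± 0.12 and 4.5 ± 0.20) and were at -0.03 ± 0.12 and 0.07 ± 0.20 with PD left out, whereas Junb was at 2.37 ± 0.23 and 0.82 ± 0.23, passing both tests.

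The sequences around 3 STAT3-list genes are printed because windows at their RefSeq starts hold the palindromic STAT-type motif TTCNNNGAA. The motif is shown in capitals within 250 bases before that start or, for Cish, in a short stretch after it. Windows of 300 bases from RefSeq (GRCm38.p6), 250 before to 50 after each gene's start, were searched on both strands, which for this motif are the same letters. It occurred in 4 of 28 windows of the STAT3 list (14.3%), which had entries for 22 of its symbols, and in 8.3% of 32851 windows overall. Windows of genes that rose held it in 7.95%, of genes that fell in 5.47% and of genes that did neither in 6.73%. The Socs3 site begins 154 bases before the start on the minus strand of chr11:117969367-117969616, the Sbno2 sites 26 and 24 bases before 2 starts on the minus strand of chr10:80102703-80102952 and chr10:80101188-80101437, and the Cish stretch lies on the plus strand of chr9:107296657-107296680. These RefSeq starts need not be those of the entries whose FPKM is given. The Socs3 window and the Cish stretch lie inside the positions of those entries, and not before their 5′ ends. A match is a description of the letters and not a bound site.
Socs3: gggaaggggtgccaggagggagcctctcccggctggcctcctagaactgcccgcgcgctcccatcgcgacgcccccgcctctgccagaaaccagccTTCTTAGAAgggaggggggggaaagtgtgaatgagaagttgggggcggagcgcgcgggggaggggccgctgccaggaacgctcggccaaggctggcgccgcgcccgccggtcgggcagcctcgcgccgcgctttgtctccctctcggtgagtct
Sbno2: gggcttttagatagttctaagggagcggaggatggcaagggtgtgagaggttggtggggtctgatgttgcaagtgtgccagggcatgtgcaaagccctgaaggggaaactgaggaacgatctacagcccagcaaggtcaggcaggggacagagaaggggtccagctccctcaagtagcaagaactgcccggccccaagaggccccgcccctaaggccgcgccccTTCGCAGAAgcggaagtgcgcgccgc
Sbno2 (second start): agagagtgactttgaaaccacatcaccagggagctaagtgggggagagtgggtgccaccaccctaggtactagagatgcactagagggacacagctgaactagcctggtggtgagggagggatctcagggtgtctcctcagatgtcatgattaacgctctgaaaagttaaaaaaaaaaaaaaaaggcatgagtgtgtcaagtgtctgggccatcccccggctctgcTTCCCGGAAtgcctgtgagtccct
Cish: ttTTCCTGGAAagTTCTTGGAAat
Sbno2, a STAT3-induced co-regulator of transcription named after its value was seen, rose from 9.53 and 8.63 FPKM in 2i to 13.3 and 15.5 FPKM in CH+LIF, by 0.61 ± 0.14, and lost the call without 2i replicate 2 or CH+LIF replicate 2 (adjusted p up to 0.0897). It thus stands at the small end of the differences among the genes printed, and Socs3 at the large end.

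ERK feedback inhibitors and ETV factors gave 10 members higher in CH+LIF and 3 lower of 20 tested, with a median log2 difference of 0.58. The share called was 65.0%, against 25.0% of all genes (11.1% higher and 13.9% lower). For the lower calls the share was near the 13.9% of all genes. Etv4, Spry4 and Dusp6 led the rise, followed by Spry2, a second Sprouty gene, at 12.3 and 11.3 FPKM in 2i and 52.3 and 46.5 FPKM in CH+LIF (1.98 ± 0.10, adjusted p = 2.87e-05). The members that fell were Phlda3, a pleckstrin-homology inhibitor of AKT, from 47.2 and 47.6 to 21.3 and 28.6 FPKM, and the phosphatase genes Dusp1 and Dusp7. Dusp1, which acts mostly on p38 and JNK, was at 31.9 and 22.9 and 17.3 and 15.9 FPKM (-0.67 ± 0.15), and lost the call without 2i replicate 1 or CH+LIF replicate 1 or 2 (adjusted p up to 0.0775). Dusp7 was at 14.0 and 16.7 and 8.83 and 11.3 FPKM (-0.57 ± 0.15), and lost it with TPM scaling and without 2i replicate 2 or CH+LIF replicate 1 (adjusted p up to 0.155). Etv5, the most abundant ETV factor, was at 240 and 249 FPKM in 2i and 222 and 208 FPKM in CH+LIF, a difference of -0.19 ± 0.13 that did not pass. With LIF added to 2i, 5 members were higher and 3 lower (9.34% and 10.3% of all genes), and with PD left out 10 were higher and 2 lower (12.8% and 13.9% of all genes). Spry4 stood at 2.17 and 1.07 FPKM in 2i+LIF, above both 2i cultures, and passed as higher with LIF added (0.83 ± 0.22, adjusted p = 0.0355) and with PD left out (3.97 ± 0.22). Spry2 stood at 35.6 and 33.6 FPKM, nearer to CH+LIF.

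Immediate-early genes, the first to respond to ERK, gave 4 members higher and 2 lower of 15 tested (40.0% called, against 25.0% of all genes), and for the lower calls the share was near the 13.9% of all genes. Besides Junb, Myc rose from 12.5 and 9.89 to 46.0 and 45.6 FPKM (1.95 ± 0.31, adjusted p = 0.00410) and Ier2 from 52.8 and 46.8 to 84.2 and 105 FPKM (0.91 ± 0.13). Egr1 was near the detection limit throughout, at 0.0630 and 0.195 FPKM in 2i and 1.05 and 1.15 FPKM in CH+LIF (0.90 ± 0.18), and lost the call without CH+LIF replicate 1 or 2 (adjusted p up to 0.0563). Ier5 and Btg2, an antiproliferative gene, were lower, at 1.80 and 1.29 and 12.2 and 11.6 FPKM in 2i and 0.249 and 0.492 and 5.45 and 7.04 FPKM in CH+LIF. Their calls were lost for Ier5 without 2i replicate 1 or CH+LIF replicate 1 (adjusted p up to 0.112) and for Btg2 without 2i replicate 1 or CH+LIF replicate 1 (adjusted p up to 0.0638). Fos, the defining member, was at 0.832 and 0.857 FPKM in 2i and 0.893 and 1.69 FPKM in CH+LIF (0.29 ± 0.20), and Jun at 1.73 and 1.99 and 2.04 and 2.93 FPKM (0.27 ± 0.18), and neither passed. Without CH+LIF replicate 1, 3 members of the list passed, all higher.

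The genes of the RAS-RAF-MEK-ERK cascade itself gave 2 members higher and 2 lower of 18 tested, with a median log2 difference of -0.05. The 22.2% called was below the 25.0% of all genes, so the calls below are values of single genes and not a result about the cascade. Ksr1, a scaffold of the cascade, fell from 3.90 and 3.93 to 1.56 and 1.70 FPKM (-0.90 ± 0.15, adjusted p = 0.00430). The RAS exchange factor Sos2 was at 3.78 and 5.92 and 2.73 and 2.07 FPKM (-0.76 ± 0.21), a call lost with TPM scaling and without 2i+LIF replicate 1 or 2, 2i replicate 2 or CH+LIF replicate 1 or 2 (adjusted p up to 0.152). The ERK-activated kinase gene Rps6ka3 was at 9.73 and 10.6 and 20.9 and 15.3 FPKM, and Nras at 26.3 and 28.5 and 40.9 and 36.5 FPKM. These higher calls were lost for Rps6ka3 without 2i replicate 1 or CH+LIF replicate 1 (adjusted p up to 0.0983) and for Nras without 2i replicate 1 or CH+LIF replicate 1 (adjusted p up to 0.0660). Of the 4 calls, 2 were left without 2i replicate 1 and 1 without CH+LIF replicate 1.

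Of the 12 components of the naïve pluripotency network, 6 rose, 2 fell and 4 did not pass (66.7% called, against 25.0% of all genes), with a median log2 difference of 0.39. With TPM scaling 8 rose and 2 fell, in a fit where 2153 of the 12777 genes were higher and 1197 lower. Gbx2, a homeobox target of STAT3, rose from 2.65 and 2.09 FPKM in 2i to 21.9 and 25.8 FPKM in CH+LIF (2.88 ± 0.15, adjusted p = 3.24e-05). Klf4 rose from 47.7 and 50.6 to 175 and 219 FPKM (1.97 ± 0.12) and Tfcp2l1 from 62.8 and 53.7 to 108 and 119 FPKM (0.95 ± 0.11), both effectors of LIF in ESCs. In 2i+LIF these genes were at 203 and 196 and 115 and 123 FPKM, above both 2i cultures. The nuclear receptor gene Esrrb, a target of Tcf3 repression, was at 182 and 155 and 229 and 235 FPKM (0.46 ± 0.11), and lost the call without 2i replicate 2 or CH+LIF replicate 1 or 2 (adjusted p up to 0.0820). Sall4 was at 214 and 226 and 287 and 262 FPKM (0.32 ± 0.09), and lost it without 2i replicate 1 or 2, CH+LIF replicate 1 or 2 or LIF+PD replicate 1 or 2 (adjusted p up to 0.165). The 2 components that fell were Tcf3 (Tcf7l1), the repressor on which GSK3 inhibition acts, and Nanog. Tcf3 was at 130 and 136 FPKM in 2i and 43.5 and 53.6 FPKM in CH+LIF (-1.44 ± 0.11, adjusted p = 1.40e-04), and Nanog at 484 and 409 and 306 and 283 FPKM (-0.60 ± 0.11, adjusted p = 0.00789). In 2i+LIF, Tcf3 was at 147 and 140 FPKM and Nanog at 549 and 476 FPKM, and both were lower with PD left out (-1.55 ± 0.11 and -0.80 ± 0.11).

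The 4 components that did not pass were Tbx3, Sox2, Klf2 and Oct4 (Pou5f1). Tbx3 was at 45.9 and 39.1 FPKM in 2i and 59.1 and 59.5 FPKM in CH+LIF (95% interval 0.11 to 0.84, adjusted p = 0.0607). It passed, higher, with TPM scaling, with scaling to one sum over nuclear genes and with only the 4 cultures compared. It also passed with a term for the replicate number in the model (a replicate block) and without LIF+PD replicate 1 or 2. Sox2 was at 226 and 198 and 174 and 157 FPKM (95% interval -0.61 to -0.09, adjusted p = 0.0568). It passed, lower, with quantile normalisation, with a replicate block and with scaling to one sum over nuclear genes. Klf2 was at 265 and 281 and 205 and 263 FPKM (95% interval -0.50 to 0.04, adjusted p = 0.186). For Oct4 the interval was -0.07 to 0.43, and it passed, higher, with TPM scaling and with quantile normalisation. Rex1 (Zfp42), whose locus carries the reporter, rose by 0.33 ± 0.09 (adjusted p = 0.0338), and lost the call without 2i replicate 1 or 2, CH+LIF replicate 1 or 2 or LIF+PD replicate 1 or 2 (adjusted p up to 0.165).

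**Figure D4:**
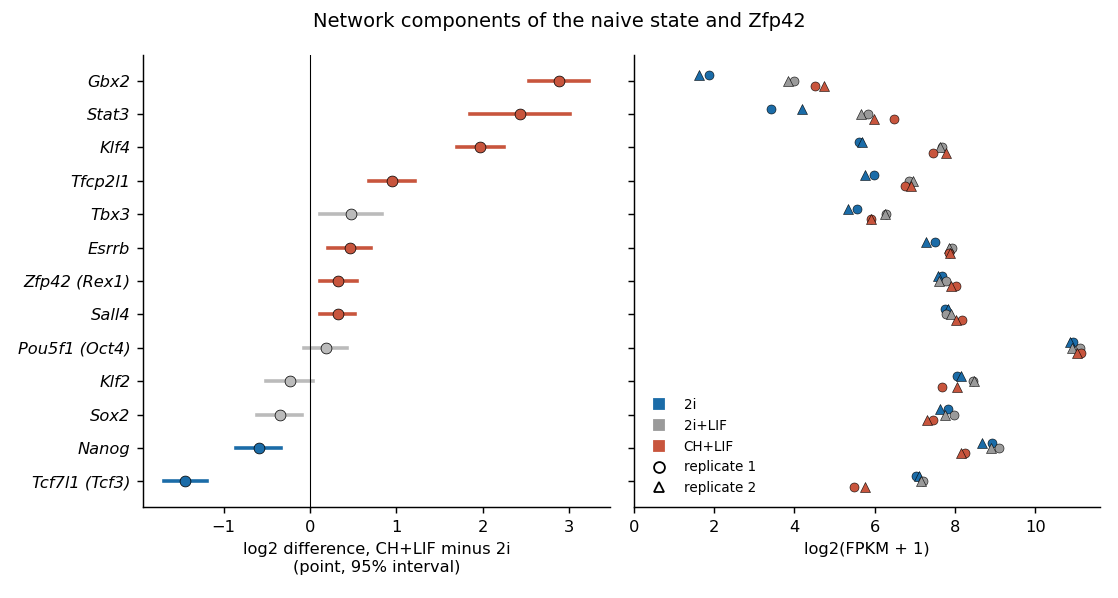
Left, the log2 difference of FPKM + 1, CH+LIF minus 2i, of the 12 network components and Rex1 (Zfp42), as a point with its 95% interval, in grey where it did not pass. Right, the level as log2(FPKM + 1) of each 2i, 2i+LIF and CH+LIF culture. Gbx2, Stat3, Klf4 and Tfcp2l1 have the largest positive differences, 2.88 to 0.95, and Tcf3 the largest negative one, -1.44.

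Naïve markers outside that network gave 6 members higher and 3 lower of 20 tested (45% called, against 25.0% of all genes), with a median of 0.05, and for the lower calls the share was near the 13.9% of all genes. Dppa3 (Stella), a maternal factor that protects DNA methylation, had the largest difference, at 24.1 and 15.3 FPKM in 2i and 2.37 and 2.30 FPKM in CH+LIF (-2.60 ± 0.22, adjusted p = 2.63e-04). It was at 66.0 and 47.9 FPKM in 2i+LIF, above 2i with LIF added (1.5 ± 0.22) and above CH+LIF, with a difference of -4.10 ± 0.22 for PD left out. Tdgf1 (Cripto), the Nodal co-receptor, rose from 112 and 70.4 to 196 and 180 FPKM (1.07 ± 0.22), and lost the call without CH+LIF replicate 1 (adjusted p up to 0.0622). Utf1, a chromatin factor of pluripotent cells, was at 280 and 263 and 320 and 371 FPKM (95% interval -0.04 to 0.73) and did not pass, against 90.7 and 65.5 FPKM in 2i+LIF. Every 2i and CH+LIF culture lay above both 2i+LIF cultures for Utf1. In this list replicate 1 exceeded replicate 2 in all 4 media for 10 of the 20 members, against 10.7% of all genes tested. The part of this in the count of calls was not tested. Without CH+LIF replicate 1, 5 members of the list passed.

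Formative and primed epiblast genes, which ESCs switch on as they leave the naïve state, gave 7 members lower and 2 higher of 18 tested (9 of 18 called, against 25.0% of all genes), with a median of -0.34, and for the higher calls the share was near the 11.1% of all genes. Otx2, an epiblast homeobox factor, fell from 13.2 and 16.4 FPKM in 2i to 2.15 and 2.11 FPKM in CH+LIF (-2.33 ± 0.15, adjusted p = 7.29e-05), and was at 2.44 and 1.80 FPKM in 2i+LIF. Zic2, a zinc-finger factor, fell from 102 and 89.4 to 26.5 and 21.9 FPKM (-1.95 ± 0.16). Dusp6, which is also on this list as an ERK target, was 1 of the 2 that rose. Pou3f1 (Oct6) was at 0.509 and 0.787 and 0.926 and 1.80 FPKM and did not pass, and Fgf5 was at 0.311 and 0.281 and 0.0666 and 0.0985 FPKM and was not tested.

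Among DNA methylation enzymes, 4 of 11 members tested rose and 1 fell (45.5% called, against 25.0% of all genes), with a median of 0.32. Tet2 rose from 6.70 and 7.05 to 17.4 and 18.9 FPKM (1.28 ± 0.10, adjusted p = 1.64e-04) and Tet1 from 20.1 and 29.5 to 58.6 and 54.1 FPKM (1.17 ± 0.20), both dioxygenases that oxidise 5-methylcytosine. Uhrf1, which recruits the maintenance methyltransferase, rose from 144 and 176 to 273 and 255 FPKM (0.73 ± 0.11). The de novo methyltransferase gene Dnmt3a was the member that fell, from 63.5 and 51.2 to 21.0 and 17.0 FPKM (-1.54 ± 0.17, adjusted p = 9.32e-04). Its level in 2i+LIF was lower than in either medium, at 6.50 and 6.33 FPKM, with differences of -2.97 ± 0.17 for LIF added and 1.43 ± 0.17 for PD left out. Dnmt3b was at 42.5 and 66.5 and 68.8 and 65.1 FPKM (95% interval -0.12 to 0.77), and the cofactor gene Dnmt3l at 150 and 140 and 157 and 156 FPKM (95% interval -0.44 to 0.66), and neither passed. Dnmt3l, too, was lower in 2i+LIF, at 47.1 and 25.4 FPKM.

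Germline genes that DNA methylation silences gave 3 calls among 10 members tested, each lower (30.0% called, near the 25.0% of all genes), with a median of -0.47, and 1 call was left without either CH+LIF replicate. Sohlh2, a germ-cell transcription factor, fell from 10.9 and 9.16 to 4.25 and 3.88 FPKM (-1.12 ± 0.15, adjusted p = 0.00210). Sycp3, of the synaptonemal complex, was at 8.84 and 7.0 and 3.09 and 3.55 FPKM, and Stk31, a germ-cell kinase gene, at 4.36 and 4.21 and 2.41 and 2.29 FPKM. These calls were lost for Sycp3 without 2i replicate 1 or CH+LIF replicate 1 or 2 (adjusted p up to 0.0923) and for Stk31 without CH+LIF replicate 1 or 2 (adjusted p up to 0.0574). The germ-cell RNA regulators Dazl and Ddx4 were at 3.58 and 2.89 and 6.34 and 6.02 FPKM in 2i and 2.34 and 2.09 and 4.42 and 3.39 FPKM in CH+LIF, and did not pass (-0.39 ± 0.20 and -0.56 ± 0.17). Ddx4 passed, lower, with a replicate block, with no mean-variance trend and with 5 added to FPKM in place of 1.

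Imprinted genes, expressed from 1 parental allele, gave 3 members higher and 6 lower of 17 tested (52.9% called, against 25.0% of all genes). With TPM scaling 3 were higher and 3 lower, in a fit where 2153 of the 12777 genes were higher and 1197 lower. Sgce and its neighbour Peg10 fell, from 10.9 and 11.1 and 94.2 and 119 FPKM in 2i to 1.45 and 1.01 and 30.5 and 43.1 FPKM in CH+LIF (-2.44 ± 0.29 and -1.52 ± 0.21). Nnat, a small membrane proteolipid gene, rose from 1.5 and 1.94 to 5.72 and 7.06 FPKM (1.44 ± 0.19, adjusted p = 0.00175), and Grb10, a growth factor receptor adaptor, from 6.60 and 10.2 to 23.5 and 22.9 FPKM (1.40 ± 0.17). The imprinted non-coding RNAs Meg3 and H19 were at 91.5 and 113 and 5.94 and 3.00 FPKM in 2i and 120 and 124 and 2.37 and 2.21 FPKM in CH+LIF, and did not pass.

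β-Catenin targets, whose inducer CH was present in both media, gave 3 members higher and 6 lower of 14 tested (64.3% called, against 25.0% of all genes). With TPM scaling 3 were higher and 3 lower, in a fit where 2153 of the 12777 genes were higher and 1197 lower. Cdx2, a caudal-type homeobox factor, fell from 12.2 and 10.6 FPKM in 2i to 1.90 and 0.733 FPKM in CH+LIF (-2.46 ± 0.25, adjusted p = 5.58e-04), while its paralogue Cdx1 rose from 15.4 and 8.83 to 36.0 and 34.2 FPKM (1.51 ± 0.25, adjusted p = 0.00488). In LIF+PD, without CH, Cdx2 was at 0.0433 and 0.0960 and Cdx1 at 0.115 and 0.128 FPKM. The Wnt receptor ligase gene Rnf43 was lower and the transcription factor gene Sp5 higher, at 2.09 and 1.42 and 28.6 and 21.9 FPKM in 2i and 0.289 and 0.671 and 45 and 41.8 FPKM in CH+LIF. These calls were lost for Rnf43 without 2i replicate 1, CH+LIF replicate 1 or 2 or LIF+PD replicate 1 or 2 (adjusted p up to 0.183) and for Sp5 without CH+LIF replicate 1 (adjusted p up to 0.0615). Lef1, a TCF-family factor, was at 37.1 and 36.4 FPKM in 2i and 31.3 and 17.9 FPKM in CH+LIF (-0.61 ± 0.22, adjusted p = 0.0805), against 6.02 and 5.46 FPKM in 2i+LIF. Axin2 was given above. With any 1 of the 8 cultures left out, those in 2i+LIF and LIF+PD included, fewer members of the list passed than the 9 called with all cultures. Those that passed were not all among the 9, since Lef1 passed without CH+LIF replicate 1.

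Nodal, BMP and ID genes gave 4 members higher and 7 lower of 17 tested (64.7% called, against 25.0% of all genes), with a median of -0.56. The ligand gene Bmp4 rose from 9.52 and 8.07 FPKM in 2i to 65.9 and 72.5 FPKM in CH+LIF (2.84 ± 0.17, adjusted p = 5.82e-05), and Id1, a BMP-induced inhibitor of helix-loop-helix factors, from 1.48 and 0.891 to 15.7 and 29.2 FPKM (3.37 ± 0.30, adjusted p = 3.29e-04). Besides Lefty1, given above, Nodal itself, named after its value was seen, fell from 68.5 and 60.3 to 14.7 and 18 FPKM (-1.92 ± 0.12, adjusted p = 7.44e-05), and was between them at 39.9 and 35.3 FPKM in 2i+LIF. Lefty2 was at 207 and 61.5 and 15.3 and 7.21 FPKM (-3.30 ± 1.15, adjusted p = 0.0720), and did not pass. It passed, lower, with only the 4 cultures compared, with a replicate block and without LIF+PD replicate 1 or 2.

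Among the other ID genes, Id3 and Id4 were named after their values were seen. Id3 was at 16.3 and 16.4 FPKM in 2i and 44.5 and 51.4 FPKM in CH+LIF (1.49 ± 0.33), and lost the call without 2i replicate 1 or 2 or CH+LIF replicate 1 or 2 (adjusted p up to 0.0795), while Id4 fell from 23.7 and 18.2 to 3.74 and 3.57 FPKM (-2.23 ± 0.21, adjusted p = 4.45e-04). In 2i+LIF, Bmp4 was at 13.2 and 10.7 and Id4 at 22.0 and 19 FPKM, and both changed with PD left out (2.45 ± 0.17 and -2.21 ± 0.21). Without CH+LIF replicate 2, 7 members of the list passed in place of 11. Replicate 1 exceeded replicate 2 in all 4 media for 8 of the 17 members, against 10.7% of all genes tested. The list was not counted with a replicate block, so the part of this in the count of calls was not tested.

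FGF ligands and receptors gave 3 members higher and 4 lower of 12 tested (58.3% called, against 25.0% of all genes), with a median of -0.29. The receptor gene Fgfr2 had the largest difference, from 8.90 and 14.3 FPKM in 2i to 0.903 and 0.684 FPKM in CH+LIF (-2.78 ± 0.23, adjusted p = 2.21e-04), and was at 34.2 and 42.1 FPKM in LIF+PD. Fgf17 rose from 2.29 and 4.11 to 14.5 and 16.4 FPKM (2.0 ± 0.20, adjusted p = 6.04e-04). The extracellular FGF carrier Fgfbp1 fell from 45.6 and 54.9 to 23.5 and 26.1 FPKM (-0.99 ± 0.13). Fgf8 was at 2.13 and 1.57 and 0.183 and 0.0883 FPKM (-1.32 ± 0.33), and lost the call without 2i replicate 1 or CH+LIF replicate 1 or 2 (adjusted p up to 0.0993). Fgf4, the main autocrine ligand of ESCs, was at 67.4 and 62.4 FPKM in 2i and 55.0 and 58.0 FPKM in CH+LIF, with a 95% interval of -0.40 to 0.00, and did not pass.

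The MYC network and G1 regulators gave 5 members higher and 9 lower of 22 tested (63.6% called, against 25.0% of all genes). With TPM scaling 5 were higher and 5 lower, in a fit where 2153 of the 12777 genes were higher and 1197 lower. Fewer members passed without CH+LIF replicate 1 or without CH+LIF replicate 2. Myc, given above, was at 8.61 and 5.31 FPKM in 2i+LIF and rose with PD left out (2.59 ± 0.31). The CDK inhibitors encoded at the Cdkn2a and Cdkn2b loci fell, Cdkn2a from 73.7 and 60.9 to 13.9 and 11.4 FPKM (-2.32 ± 0.15, adjusted p = 7.29e-05) and Cdkn2b from 4.83 and 4.51 to 0.839 and 0.950 FPKM (-1.58 ± 0.16). Rb1, which encodes the retinoblastoma protein, was at 8.14 and 14.8 and 2.56 and 5.07 FPKM (-1.37 ± 0.34), and lost the call without 2i replicate 2 or CH+LIF replicate 1 (adjusted p up to 0.128). Ccne1, the gene of cyclin E1 and named after its value was seen, rose from 71.5 and 66.5 to 176 and 170 FPKM (1.31 ± 0.11, adjusted p = 2.80e-04).

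BCL2-family genes of apoptosis gave 3 members higher and 2 lower of 13 tested (38.5% called, against 25.0% of all genes, with the lower calls near the 13.9% of all genes), and 2 and 3 in all without CH+LIF replicate 1 and replicate 2. The pro-apoptotic Bid rose from 22.5 and 20.3 to 49.0 and 56.8 FPKM (1.26 ± 0.11, adjusted p = 2.88e-04) and Bok from 1.90 and 2.48 to 5.25 and 5.58 FPKM (1.01 ± 0.15). Pmaip1 (Noxa) was at 0.950 and 0.603 and 1.88 and 2.19 FPKM, and Bcl2l11 (Bim), a BH3-only gene, at 3.79 and 4.76 and 2.34 and 2.24 FPKM (-0.68 ± 0.15). These calls were lost for Pmaip1 without 2i replicate 2 or CH+LIF replicate 1 or 2 (adjusted p up to 0.120) and for Bcl2l11 without 2i replicate 2 or CH+LIF replicate 1 or 2 (adjusted p up to 0.0678). The survival gene Mcl1 was at 174 and 143 and 116 and 124 FPKM (95% interval -0.69 to -0.09) and did not pass. It passed, lower, with quantile normalisation, with a replicate block, with scaling to one sum over nuclear genes and without 2i replicate 2.

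SRF, actomyosin and YAP target genes, a list that also holds keratin genes and Vim, gave 6 members higher and 4 lower of 17 tested (58.8% called, against 25.0% of all genes). Krt8, a simple-epithelium keratin, rose from 1.90 and 4.21 to 11.3 and 17.1 FPKM (1.94 ± 0.30, adjusted p = 0.00348). The tropomyosin gene Tpm2 fell from 17.3 and 15.3 to 4.85 and 5.03 FPKM (-1.54 ± 0.17, adjusted p = 9.23e-04). The myosin light chain gene Myl9 and the YAP target Ctgf were lower, at 2.60 and 3.31 and 18.1 and 10.4 FPKM in 2i and 0.742 and 0.570 and 6.01 and 5.79 FPKM in CH+LIF. These calls were lost for Myl9 without 2i replicate 2 or CH+LIF replicate 1 or 2 (adjusted p up to 0.0678) and for Ctgf without CH+LIF replicate 1 or 2 (adjusted p up to 0.0609). The list gave 6 calls without 2i replicate 1, 5 without CH+LIF replicate 1 and 4 without CH+LIF replicate 2.

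Extracellular matrix and integrin genes gave 6 members higher and 7 lower of 21 tested (61.9% called, against 25.0% of all genes), with a median of -0.17. Col18a1, a basement membrane collagen, fell from 124 and 134 to 31.3 and 31.7 FPKM (-2.0 ± 0.10, adjusted p = 2.63e-05), and Serpinh1, the collagen chaperone, from 30.5 and 25.6 to 5.53 and 7.06 FPKM (-2.0 ± 0.15). Among integrins, Itgav fell from 17.4 and 17.2 to 4.54 and 3.99 FPKM (-1.80 ± 0.15) while Itga5 rose from 3.97 and 4.29 to 11.7 and 13.3 FPKM (1.39 ± 0.13, adjusted p = 3.68e-04).

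Glycolysis and glucose transport genes gave 1 member higher and 4 lower of 19 tested, with a median of -0.40. The 26.3% called was near the 25.0% of all genes, so the calls below are values of single genes and not a result about the group. Ldhb, a lactate dehydrogenase subunit, fell from 805 and 770 to 323 and 287 FPKM (-1.37 ± 0.10, adjusted p = 1.53e-04) and the phosphofructokinase gene Pfkm from 35.2 and 40.3 to 18.1 and 18.7 FPKM (-0.99 ± 0.10). Hk2, a hexokinase gene, was the member that rose, from 32.1 and 25.5 to 59.2 and 59.0 FPKM (1.02 ± 0.12, adjusted p = 0.00120). The lactate exporter gene Slc16a3 was at 39.4 and 24.2 FPKM in 2i and 8.71 and 4.80 FPKM in CH+LIF (-2.09 ± 0.42), and lost the call without 2i replicate 1 or CH+LIF replicate 2 (adjusted p up to 0.0621). Aldoa, an abundant glycolytic enzyme gene, was at 1699 and 1145 and 990 and 833 FPKM (-0.62 ± 0.23) and did not pass. It passed, lower, with a replicate block and without 2i replicate 2. Replicate 1 exceeded replicate 2 in all 4 media for 15 of the 19 members (78.9%), against 10.7% of all genes. The replicate block changed the call of Aldoa, but the list was not counted with it. The part of the replicate order in the count of calls was thus not tested. More members passed without 2i replicate 2. That fit leaves 1 culture in 2i, so its count is not read as a result about the group.

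Cholesterol synthesis genes gave 1 member higher and 2 lower of 19 tested (15.8% called, below the 25.0% of all genes), and 1 call without 2i replicate 1 or CH+LIF replicate 1. Sqle, the squalene epoxidase gene, fell from 87.1 and 81.0 to 57.0 and 55.9 FPKM (-0.56 ± 0.08, adjusted p = 0.00233). Pmvk and Ebp were at 25.3 and 31.2 and 76.5 and 68.0 FPKM in 2i and 48.7 and 40.9 and 57.4 and 54.9 FPKM in CH+LIF, and their calls were lost for Pmvk without 2i replicate 1 or CH+LIF replicate 1 (adjusted p up to 0.137) and for Ebp with TPM scaling and without 2i replicate 1, CH+LIF replicate 1 or 2 or LIF+PD replicate 1 or 2 (adjusted p up to 0.179). Beside these values, LIF added to 2i gave 7 calls among the members, each lower (10.3% of all genes), and PD left out gave 9, each higher (12.8% of all genes). None of the 11 mitochondrially encoded protein genes tested passed the limma test, with 1 at an unadjusted p below 0.05 and 1 lower after quantile normalisation.

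MHC class I and interferon-response genes gave 5 members higher and 4 lower of 14 tested (64.3% called, against 25.0% of all genes), and 4 calls in all without CH+LIF replicate 1. Bst2 (tetherin), an antiviral membrane protein gene, rose from 3.23 and 7.17 FPKM in 2i to 48.3 and 45.6 FPKM in CH+LIF (3.03 ± 0.31, adjusted p = 6.05e-04). Ifitm1 fell from 516 and 524 to 165 and 146 FPKM (-1.74 ± 0.11, adjusted p = 6.42e-05). The Ifitm genes are related in sequence, and any sharing of reads between them was not measured, so the value is uncertain. The MHC gene H2-D1 rose from 2.07 and 1.80 to 4.39 and 3.94 FPKM (0.82 ± 0.13). Its value is uncertain likewise, as MHC class I genes are also related in sequence. Irf9, an interferon-response transcription factor gene, was at 6.55 and 7.58 and 14.3 and 14.8 FPKM (0.95 ± 0.20), and lost the call without 2i replicate 1 or CH+LIF replicate 1 or 2 (adjusted p up to 0.0599).

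**Figure D5:**
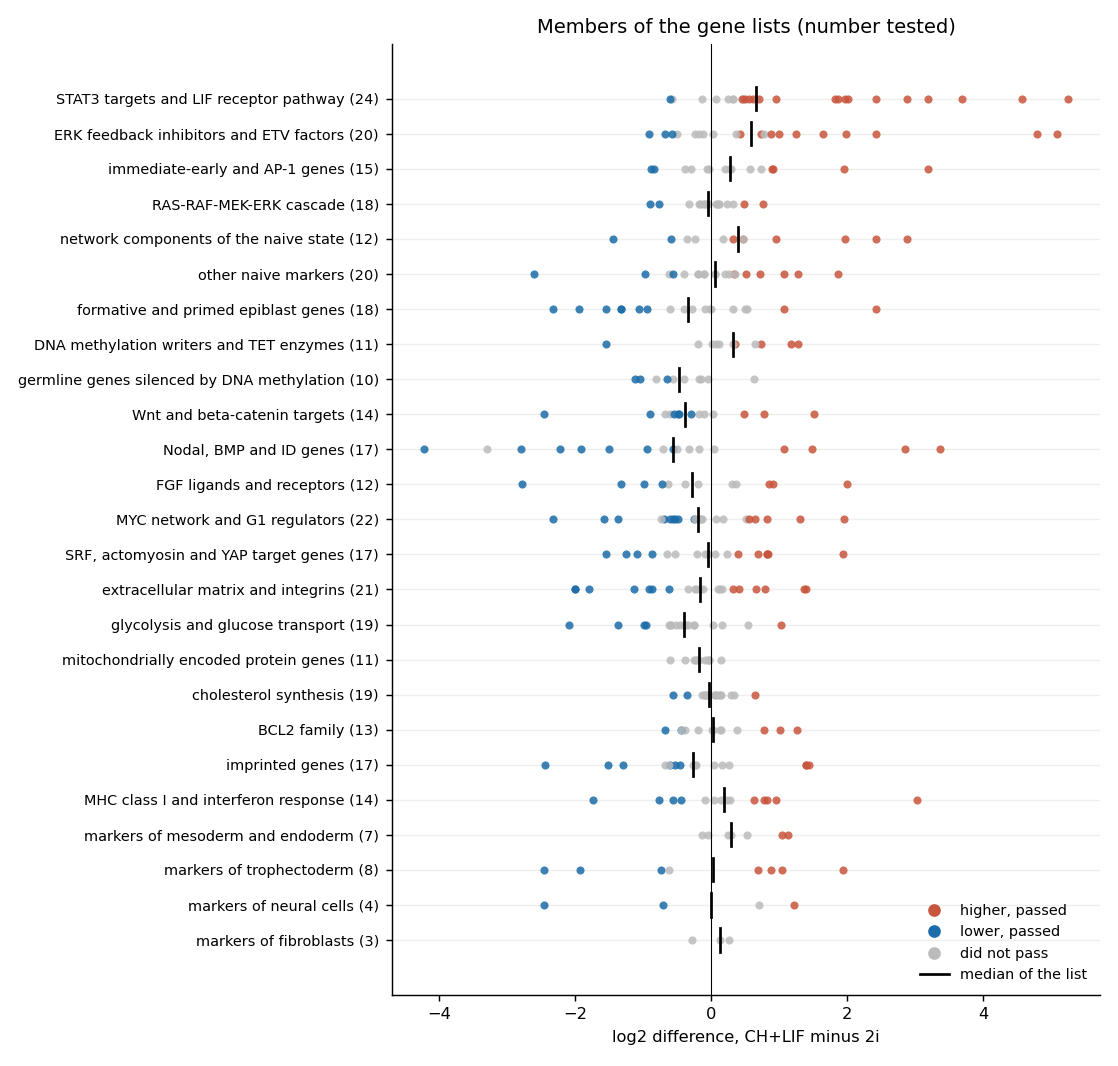
Log2 difference CH+LIF minus 2i of each tested member of the gene lists, 1 point per gene and 1 row per list, with the list median as a black bar, genes that passed in red (higher) or blue (lower) and the others in grey. In the STAT3 list 16 of 24 points are red, and its median is at 0.66.

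Markers of other cell types were checked in the same way, and in these bulk libraries less RNA per cell and fewer cells of a type cannot be told apart. Of the 7 mesoderm and endoderm markers tested, 2 passed, each higher (28.6% called, near the 25.0% of all genes). Summed levels of this list and of those that follow take in all markers found, tested or not. For mesoderm and endoderm the sum was 18.3 to 30.9 FPKM in 2i and 38.1 to 55.5 FPKM in CH+LIF. The endoderm markers Cer1 and Afp were listed at 0 in all 4 cultures. T (Brachyury), the largest part of this sum in each culture, was at 15.4 and 8.23 FPKM in 2i and 36.4 and 18.5 FPKM in CH+LIF (1.13 ± 0.35). It lost the call in 11 of 20 alternative analyses. These left out 2i+LIF replicate 1 or 2, 2i replicate 2, CH+LIF replicate 1 or LIF+PD replicate 1 or 2. The others used only the 4 cultures compared, no filter on low values, no mean-variance trend, short genes kept or 0.1 added to FPKM in place of 1. Eomes was at 5.58 and 2.85 and 9.98 and 8.85 FPKM (1.05 ± 0.25), and lost the call without 2i replicate 2 or CH+LIF replicate 1 or 2 (adjusted p up to 0.107). No call was left in this list without 2i replicate 2 or without CH+LIF replicate 1, and 1 was left without CH+LIF replicate 2 or any 1 of the other 4 cultures. Trophectoderm markers gave 4 members higher, Krt8 and Eomes among them, and 3 lower of 8 tested (87.5% called, against 25.0% of all genes), at summed levels of 69.8 to 71.0 FPKM in 2i and 67.7 to 75.8 FPKM in CH+LIF, and 3 and 4 calls in all without CH+LIF replicate 1 and replicate 2. Gata3 was at 1.70 and 6.83 and 0.0254 and 0.426 FPKM (-1.93 ± 0.52), and lost the call without 2i replicate 2 or CH+LIF replicate 1 or 2 (adjusted p up to 0.147). Cdx2, a defining trophectoderm factor and β-catenin target, was among those that fell.

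Neural markers gave 1 member higher and 2 lower of 4 tested (75% called, against 25.0% of all genes), at summed levels of 11.7 to 16.1 FPKM in 2i and 6.99 to 8.01 FPKM in CH+LIF. Pax6, a neural and eye-field factor, fell from 7.81 and 9.2 to 0.805 and 0.660 FPKM (-2.45 ± 0.14, adjusted p = 6.20e-05), and was at 0.577 and 0.459 FPKM in 2i+LIF. The calls of Sox1, higher at 1.04 and 1.83 FPKM against 0 and 0.0595 FPKM in 2i, and of Nes, lower at 1.42 and 1.42 against 2.79 and 3.14 FPKM, were lost for Sox1 without CH+LIF replicate 2 (adjusted p up to 0.0514) and for Nes without CH+LIF replicate 1 (adjusted p up to 0.0503). Of the fibroblast markers, 3 were tested and 0 passed the limma test, also at an unadjusted p below 0.05, and 5 were listed at 0 in all 4 cultures. Postn, a fibroblast matrix gene, was listed at 0 and 14.1 FPKM in the CH+LIF cultures and at 0 FPKM in both 2i cultures, and was not tested because 1 culture of 8 reached 1 FPKM.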

How the data were processed

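RNA-seq was deposited for 8 cultures, 2 in each of 2i, 2i+LIF, CH+LIF and LIF+PD, grouped by the condition in the sample labels. The authors aligned reads to mm10 with TopHat2 and, per the submitters' processing notes, used Cufflinks and Cuffdiff, with the Ensembl 75 annotation named in the methods and tool versions not given in the sources used here. The deposited values are FPKM per gene, which were used as deposited. The labels name polyA RNA and the methods ribosomal RNA depletion, so the selection is uncertain. The authors' count-based tests were not used here.

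Of 39013 entries per file, 22 repeated an identifier and were summed. Genes with FPKM of at least 1 in at least 2 of 8 cultures were kept (12927), less 150 shorter than 300 bases, whose FPKM depends strongly on effective length. log2(FPKM + 1) was fitted with limma 3.58.1 in R 4.3.3 (eBayes with a mean-variance trend) for all 8 cultures in 4 groups on 4 residual degrees of freedom, adjusted by Benjamini-Hochberg over 12777 genes, and tested on simulated data first. The comparison and the gene lists were chosen with earlier results of these data known. Named were the markers, the network components with Zfp42, the 10 largest rises and 10 largest falls among called genes with a mean of at least 5 FPKM in either medium and no overlap of cultures (1 predicted gene or clone name left out among the rises), and for each list the 4 largest called changes and defining members that did not pass, which were picked by judgement with values known. Cish, Lifr, Jak2, Sbno2, Phlda3, Dusp1, Dusp7, Ier5, Btg2, Nodal, Id3, Id4 and Ccne1 were named after their values were seen. Some genes that the rule names are not reported here. Symbols not found, such as Mvd and Tubb3, were not analysed here. Steps between low FPKM gave relative depths of 0.499 to 1.18, at which 10.8% to 22.3% of the gene ratios of a library to replicate 1 of 2i+LIF coincided. Read totals are not known, so no counting interval was given. Alternatives were other pseudocounts, filters, scalings, no trend, the compared cultures alone, short genes kept, a replicate block and leaving out each culture, and 1 scaling added after the data had been seen.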

Additional observations from a re-analysis of the deposited data

How the results depend on the processing

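The genes higher in CH+LIF than in 2i numbered 2153 with TPM scaling and 909 with only the 4 cultures compared, against 1418 as reported, and 81.5% and 64.1% of the reported calls were also called there. Leaving out 1 culture at a time gave 693 to 1266 genes higher and 930 to 1620 lower for CH+LIF against 2i, 677 to 1117 and 637 to 1196 for 2i+LIF against 2i, and 709 to 1696 and 945 to 1813 for CH+LIF against 2i+LIF, with fewer samples in each fit. With TPM scaling the last comparison gave 3002 higher and 1051 lower. Scaling to one sum over nuclear genes of at least 300 bases, chosen after seeing the data, gave 1574 higher and 1659 lower for the main comparison. The log2 difference of Axin2, 0.02 as reported, was -0.029 to 0.070 when 1 culture was left out, the lowest without CH+LIF replicate 1. It did not pass in these fits. Of 110 named genes that passed, 36 lost the call in at least 1 of 20 alternatives and 0 changed direction. Apart from T, the losses given gene by gene above are those with TPM scaling or with 1 culture left out. Other alternatives also lost the call of some of these genes, such as Ebp and Jak2. The cause of these changes was not tested beyond the construction of each alternative. 2i replicate 1, at a relative depth of 0.499, is the shallowest library and gives the least precise low values.

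Same-numbered replicates deviated from their group means with correlations of 0.04 to 0.14 between media (0.06 for 2i with CH+LIF), so the numbers were not taken to pair the samples. With a replicate block, 1547 genes were higher and 1948 lower in CH+LIF than in 2i, and 97.1% of the reported calls were also called.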
